A study of Caenorhabditis elegans with 48 samples.

Results

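The genes described here are the core components of the insulin signalling pathway of the nematode Caenorhabditis elegans: daf-2, ist-1, age-1, daf-18, pdk-1, akt-1, akt-2, sgk-1 and daf-16. They were chosen by symbol, by their place in the pathway, and matched to WormBase gene identifiers. Of these 9 genes, 8 had values in both the mRNA-seq table of 19454 genes and the Ribo-seq table of 10741 genes, and these 8 passed the filter on low counts in every comparison. The receptor gene daf-2 was not analysed here. Messenger RNA (polyA RNA) and ribosome footprints (the stretches of mRNA protected by translating ribosomes) were sequenced from worms in 48 libraries, 24 per assay. The first experiment compared Starved worms with Fed worms, with 6 libraries per group and assay. The second compared knockdown of E02H1.1, knockdown of C27F2.4 and an Empty_vector control, with 4 libraries per group and assay. The study concerns stress adaptation passed on across generations and methyl marks on 18S rRNA, the RNA of the small ribosomal subunit. The enzymes DIMT1 and BUD23 place such marks in other species, and their C. elegans counterparts are E02H1.1 and C27F2.4. The labels used here give no strain, length of starvation or generation. Nothing in them states that the replicates came from different cultures, and the p-values then reflect only library-to-library spread, which may be technical.

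In this pathway, insulin-like peptides bind the receptor DAF-2, which acts through the adaptor IST-1 and the PI3-kinase AGE-1 to make a signalling lipid at the membrane. The phosphatase DAF-18 removes that lipid. The kinase PDK-1 and the lipid activate the kinases AKT-1, AKT-2 and SGK-1, and the AKT kinases phosphorylate the FOXO transcription factor DAF-16 and hold it in the cytoplasm. When signalling is low, as in starved larvae, DAF-16 enters the nucleus and raises genes of stress resistance and fat metabolism. Pathway activity is set mainly by phosphorylation and localisation, which neither assay measures.

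Library totals were 19238095 to 22837203 counts for mRNA-seq and 3905609 to 11746420 counts for Ribo-seq. The knockdown targets followed their labels: E02H1.1 mRNA averaged 19.1 ± 1.61 CPM (counts scaled to a common library size) in E02H1.1 knockdown and 67.8 ± 5.42 CPM in Empty_vector (SD, n = 4 each). C27F2.4 mRNA averaged 31.5 ± 1.93 CPM in C27F2.4 knockdown and 62.1 ± 4.55 CPM in Empty_vector (SD, n = 4 each). The source label calls the worms young adults, but the 36 adult markers (yolk proteins, collagens of the adult cuticle, sperm proteins) together reached only 3.19 to 6.10 CPM per mRNA-seq library, and 4 of them were at 0 in all 24. In the same libraries 6 genes of the embryonic sheath and cuticle summed to 3264 to 4514 CPM. The adult markers thus went against the stage label, and these lists do not settle which stage the worms were. Starved 1 with Starved 5, and Empty_vector C with C27F2.4 A, were singled out after the data had been seen. Where calls of the pathway genes changed without these libraries, both outcomes are given. Marker counts and most list counts and all-gene shares are given with all libraries only. In such bulk samples, a change in the share of cells that express a gene and a change in its mRNA per cell cannot be told apart.

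Counts of the pathway genes set the precision of what follows. In mRNA-seq they ran from 334 for ist-1 to 5951 for daf-18 in a single library. In Ribo-seq they ran from 20 to 107 for ist-1 and from 155 to 3144 for the other members. Since no transcript lengths were used, CPM levels are compared between groups for 1 gene and not between genes. Count ratios of 1 gene to another are compared between groups. Only the ratio of footprints to mRNA is ranked across genes.

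Of the insulin pathway genes that passed the test between Starved and Fed worms, all but akt-2 fell in Starved worms. In mRNA, 3 of the 8 genes passed the test, and all 3 fell: the phosphatase gene daf-18, the kinase gene akt-1 and, less securely, the transcription factor gene daf-16. Of all 13293 genes tested in that comparison, 21.9% passed, 11.8% higher and 10.2% lower. In footprints, 4 of the 8 passed: age-1, daf-18 and pdk-1 fell and akt-2 rose, where 28.6% of 10589 genes passed, 13.9% higher and 14.7% lower. The median log2 fold change of the 8 genes was -0.12 in mRNA and -0.10 in footprints, against 0.00 and 0.01 for all genes tested, and 7 of 8 were below 0 in each assay. Without Starved 1 and Starved 5, 2071 of 13481 genes passed in mRNA and 2038 of 10642 in footprints. With all libraries 2915 and 3033 passed. The changes of the 8 genes were small, with no member beyond 0.32 on the log2 scale. Adjusted p-values here come from edgeR's quasi-likelihood test with Benjamini-Hochberg adjustment over all genes, with 0.05 as the threshold.

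**Figure D1:**
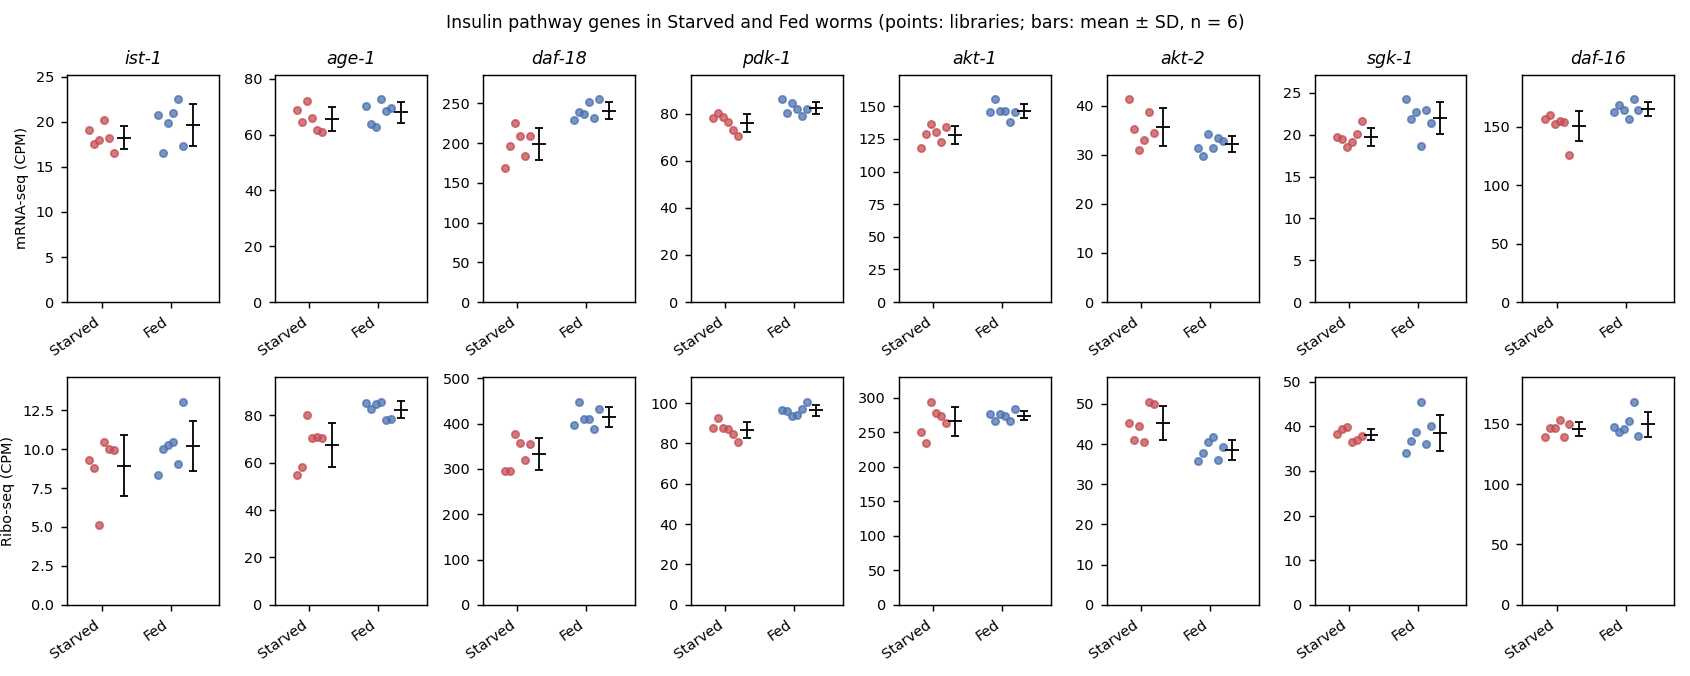
CPM of the 8 insulin pathway genes (columns) in mRNA-seq (top) and Ribo-seq (bottom) for Starved (left) and Fed (right) worms. Points are libraries and bars show the mean ± SD over 6 libraries. The Starved and Fed points do not overlap for daf-18 in either assay, for akt-1 in mRNA-seq and for pdk-1 in Ribo-seq.

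The groups did not overlap for 2 of the 8 genes in mRNA (daf-18 and akt-1) and for 2 in footprints (daf-18 and pdk-1). Of all genes tested, 9.42% did not overlap in mRNA and 11.6% in footprints.

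daf-18 moved most and in both assays. Its mRNA ran from 169 to 225 CPM with a median of 202 in Starved worms, and from 229 to 256 CPM with a median of 238 in Fed worms. Every Starved library was below every Fed library. The log2 fold change was -0.28 ± 0.05 (SE, adjusted p = 0.000592). Its footprints ran from 295 to 377 CPM with a median of 337 in Starved worms, and from 388 to 449 CPM with a median of 409.6 in Fed worms, again without overlap, and the log2 fold change was -0.32 ± 0.05 (adjusted p = 1.95e-05). The mRNA and footprints of this lipid phosphatase gene thus differed by a similar size.

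The lipid kinase gene age-1, which acts against daf-18, fell in footprints only past the threshold. Its footprints ran from 54.7 to 80.3 CPM with a median of 70.5 in Starved worms, and from 77.96 to 85.8 CPM with a median of 83.7 in Fed worms. Starved 3 was the single Starved library inside the Fed range, and Starved 1 and Starved 2 were the lowest. The footprint log2 fold change was -0.29 ± 0.07 (adjusted p = 0.000821). Its mRNA averaged 65.7 ± 4.23 CPM in Starved and 67.9 ± 3.89 CPM in Fed worms (SD, n = 6 each), a log2 fold change of -0.05 with a 95% interval of -0.15 to 0.05 and an adjusted p of 0.517. aap-1, which encodes the adaptor subunit that binds AGE-1 and is not among the 9 genes, had log2 fold changes of -0.09 in mRNA (adjusted p = 0.214) and -0.09 in footprints (adjusted p = 0.289).

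ist-1, for the insulin receptor substrate homologue, gave no call. Its mRNA averaged 18.3 ± 1.26 CPM in Starved and 19.7 ± 2.32 CPM in Fed worms (SD, n = 6 each; log2 fold change -0.11, 95% interval -0.27 to 0.05). Its footprints averaged 8.95 ± 1.95 CPM in Starved and 10.2 ± 1.62 CPM in Fed worms, and with so few counts the interval of the log2 fold change ran from -0.44 to 0.12.

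The kinases below the lipid did not move as a block. akt-1 mRNA ran from 118 to 136 CPM with a median of 129 in Starved worms, and from 138 to 156 CPM with a median of 146 in Fed worms, without overlap (log2 fold change -0.19 ± 0.04, adjusted p = 0.000708). Its footprints were 265 ± 21.2 CPM in Starved and 273 ± 6.45 CPM in Fed worms (SD, n = 6 each), a log2 fold change of -0.04 with an interval of -0.14 to 0.05. The related kinase gene akt-2 went the other way. Its footprints ran from 40.5 to 50.6 CPM with a median of 44.9 in Starved worms, and from 35.7 to 41.7 CPM with a median of 38.6 in Fed worms. Starved 2 and Starved 4 lay inside the Fed range, and the log2 fold change was 0.24 ± 0.07 (adjusted p = 0.00819). The footprint call for akt-2 was lost without Starved 1 and Starved 5 (0.19, adjusted p = 0.0827). Its mRNA averaged 35.6 ± 3.78 CPM in Starved and 32.1 ± 1.66 CPM in Fed worms (SD, n = 6 each; log2 fold change 0.15 ± 0.06, adjusted p = 0.0991), highest in Starved 1 (41.3 CPM) and Starved 5 (38.6 CPM). Without Starved 1 and Starved 5 that mRNA difference was 0.06 (adjusted p = 0.557), and without Starved 1 alone 0.10 (adjusted p = 0.285). Without Starved 3 it was 0.18 and passed the test (adjusted p = 0.0379).

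pdk-1, for the kinase that activates AKT and SGK, had footprints of 80.8 to 92.6 CPM with a median of 87.2 in Starved worms and of 93.6 to 100.7 CPM with a median of 96.3 in Fed worms. The groups did not overlap, and the log2 fold change was -0.15 ± 0.05 (adjusted p = 0.0195). That call was lost when all libraries were thinned to the total of the shallowest (-0.10, adjusted p = 0.186) and without Starved 1 and Starved 5 (-0.15, adjusted p = 0.0632). pdk-1 mRNA averaged 76.2 ± 3.80 CPM in Starved and 82.4 ± 2.67 CPM in Fed worms (SD, n = 6 each; log2 fold change -0.11 ± 0.04, adjusted p = 0.0554). The pdk-1 mRNA difference passed the test without Starved 1 (adjusted p = 0.0437), Starved 2 (0.0343) or Starved 3 (0.0370), with DESeq2 (0.0368) and with scaling by library totals (0.0122). sgk-1 mRNA averaged 19.8 ± 1.08 CPM in Starved and 21.97 ± 1.92 CPM in Fed worms (SD, n = 6 each; log2 fold change -0.15 ± 0.07, adjusted p = 0.129), and its footprint log2 fold change was -0.01 with an interval of -0.15 to 0.14.

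daf-16, the FOXO gene at the end of the pathway, had mRNA of 126 to 160.5 CPM with a median of 155 in Starved worms, and of 156 to 174 CPM with a median of 164 in Fed worms. Starved 6, at 126 CPM, stood below the other Starved libraries, which began at 153 CPM. The log2 fold change was -0.13 ± 0.05 (adjusted p = 0.0359), the smallest called change among the pathway's mRNAs. Without Starved 6 it was -0.08 (adjusted p = 0.0925). The call was also lost without Fed 2 (adjusted p = 0.0738), Fed 3 (0.0557), Fed 5 (0.0878) or Fed 6 (0.0513), and without Starved 1 and Starved 5 (0.0515). Footprints of daf-16 averaged 146 ± 5.80 CPM in Starved and 149.5 ± 10.1 CPM in Fed worms (SD, n = 6 each; log2 fold change -0.04, interval -0.14 to 0.06).

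Markers of several tissues moved beside these genes, and their part in the results was not tested. The 12 germline genes summed to 430 to 520 footprint CPM in Starved and 578 to 675 CPM in Fed libraries, and 9 of 12 fell. In mRNA 0 of these 12 passed, with overlapping sums of 704 to 865 CPM in Starved and 749 to 919 CPM in Fed libraries. The 6 muscle genes summed to 2387 to 3371 mRNA CPM in Starved and 2221 to 2375 CPM in Fed libraries, and 5 of 6 rose. Muscle footprints summed to 2602 to 3147 CPM in Starved and 2874 to 3288 CPM in Fed libraries, where 2 genes rose and 1 fell. Of 7 intestinal genes, 3 rose in mRNA, with sums of 698 to 854 CPM in Starved and 659 to 719 CPM in Fed libraries. In footprints 2 of these 7 rose. Of all genes, 11.8% rose in mRNA, and 13.9% rose and 14.7% fell in footprints. Scaling by library totals moved the median of all mRNA log2 fold changes to -0.03, and 37.7% of all mRNA calls were then higher in Starved worms, against 53.7% with TMM scaling. For TE the same change moved that share to 66.0%, against 40.5%.

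Translational efficiency (TE, footprints relative to mRNA) of the pathway genes gave no call between Starved and Fed worms in the fit by group alone. In the edgeR test of the assay by group interaction 0 of 8 genes passed and 2 had an unadjusted p under 0.05, where 6.29% of 10572 genes passed. These 2 were age-1 (log2 TE change -0.24 ± 0.08, adjusted p = 0.0780) and akt-1 (0.15 ± 0.06, adjusted p = 0.143). The log2 ratio of footprints to mRNA of age-1 averaged 0.03 ± 0.22 in Starved and 0.28 ± 0.10 in Fed worms (SD, n = 6 each). The TE change of age-1 passed the test without Starved 6 (-0.28, adjusted p = 0.0492). DESeq2 was not run for TE. With a block by library name, shared by both assays, the age-1 TE change also passed (-0.24, adjusted p = 0.0320). In that fit 1145 of 10572 genes passed. The akt-1 TE change passed under no alternative. For akt-1, an effect past the threshold in 1 assay and not in the other is therefore not shown to differ between the assays. For age-1 the answer depended on the fit.

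**Figure D2:**
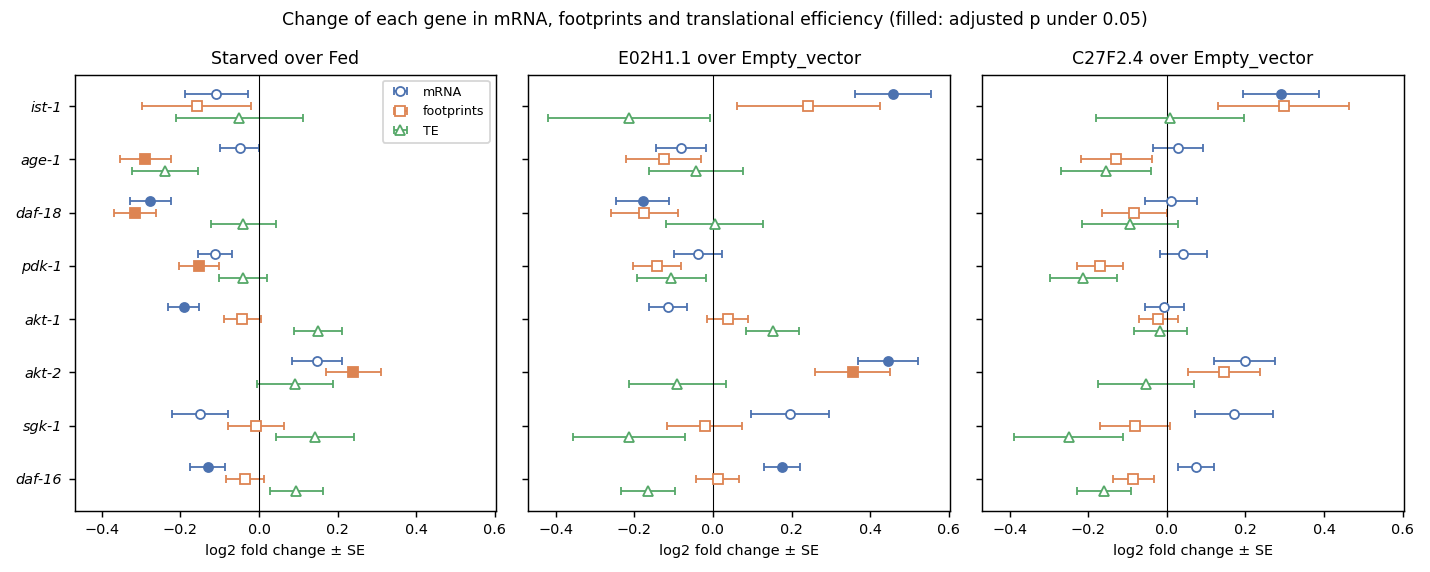
Log2 fold changes ± SE (x axis) of the 8 genes (rows) in mRNA, footprints and TE, for Starved over Fed (left), E02H1.1 over Empty_vector (middle) and C27F2.4 over Empty_vector (right). Filled symbols passed an adjusted p of 0.05. akt-2 lies right of 0 for mRNA and footprints in each panel, and no TE symbol is filled.

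E02H1.1 knockdown raised the mRNA of akt-2, ist-1 and daf-16 and lowered that of daf-18, against Empty_vector. These 4 of 8 genes passed where 39.5% of 13637 genes passed, 19.9% higher and 19.6% lower. In footprints 1 of 8, akt-2, passed, against 20% of 10736 genes, 10.7% higher and 9.23% lower. C27F2.4 knockdown gave 1 mRNA call among the 8 genes, ist-1, where 13.7% of genes passed, 8.11% higher and 5.56% lower. It gave 0 footprint calls in edgeR and in DESeq2, with 1 unadjusted p under 0.05, where 7.08% of genes passed, 4.96% higher and 2.11% lower. Without Empty_vector C and C27F2.4 A that balance turned, with 317 genes higher and 358 lower, against 533 and 227 with all libraries. Both knockdowns were compared with the same 4 Empty_vector libraries, so their changes share that reference. The median log2 fold change of the 8 genes was 0.07 in mRNA and 0.00 in footprints for E02H1.1, and 0.06 and -0.08 for C27F2.4, while the medians of all genes lay within 0.01 of 0.

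**Figure D3:**
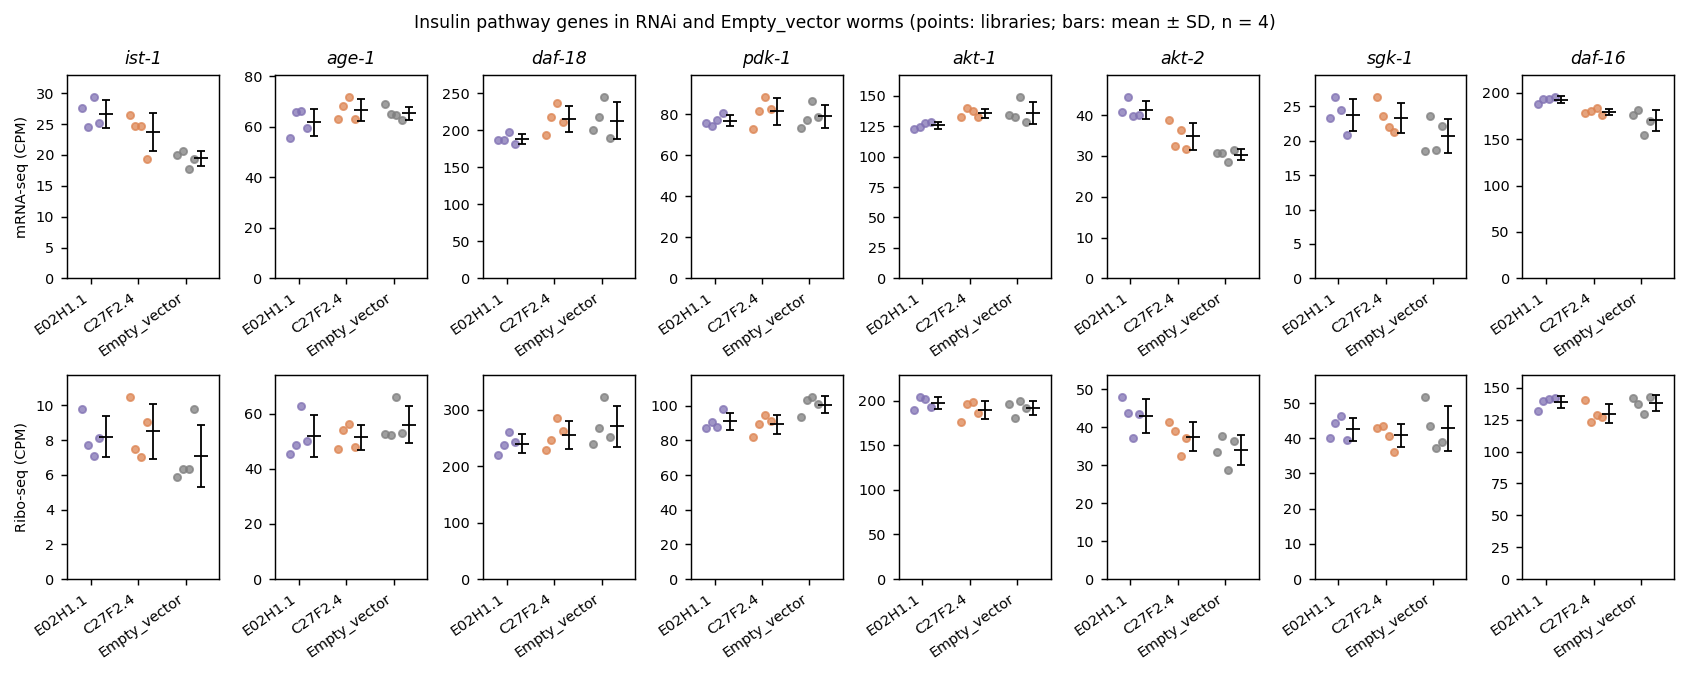
CPM of the 8 insulin pathway genes (columns) in mRNA-seq (top) and Ribo-seq (bottom) for E02H1.1 knockdown, C27F2.4 knockdown and Empty_vector worms, from left to right. Points are libraries and bars show the mean ± SD over 4 libraries. The E02H1.1 points of akt-2, ist-1 and daf-16 lie above all Empty_vector points in mRNA-seq.

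akt-2 responded most clearly. Its mRNA had 40.8, 44.5, 39.9 and 39.96 CPM in E02H1.1 libraries A to D, 38.8, 32.4, 36.3 and 31.7 CPM in C27F2.4 libraries, and 30.8, 30.6, 28.4 and 31.4 CPM in Empty_vector libraries. Neither knockdown group overlapped Empty_vector. The log2 fold change was 0.44 ± 0.08 in E02H1.1 (1.36-fold, adjusted p = 5.82e-05) and 0.20 ± 0.08 in C27F2.4 (adjusted p = 0.0846). Footprints of akt-2 had 47.9, 43.8, 37.1 and 43.5 CPM in E02H1.1 libraries and 33.4, 37.6, 28.6 and 36.3 CPM in Empty_vector libraries. E02H1.1 C lay inside the Empty_vector range, and the log2 fold change was 0.36 ± 0.10 (adjusted p = 0.0118). Without E02H1.1 A this was 0.30 and the call was lost (adjusted p = 0.0593). In C27F2.4 knockdown the footprint change was 0.15 with an interval of -0.05 to 0.34. Without Empty_vector C and C27F2.4 A the C27F2.4 changes of akt-2 were 0.11 in mRNA (adjusted p = 0.429) and 0.01 in footprints (adjusted p = 0.982).

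Its relative akt-1 did not move with it. akt-1 mRNA averaged 126 ± 2.64 CPM in E02H1.1 knockdown, 135 ± 3.88 CPM in C27F2.4 knockdown and 136 ± 9.19 CPM in Empty_vector (SD, n = 4 each). E02H1.1 and Empty_vector libraries did not overlap, but the log2 fold change of -0.11 ± 0.05 missed the threshold (adjusted p = 0.0622). It passed without Empty_vector D (-0.14, adjusted p = 0.0364). In footprints akt-1 changed by 0.04 in E02H1.1 (interval -0.07 to 0.14) and by -0.02 in C27F2.4 (interval -0.13 to 0.08). pdk-1 footprints averaged 90.9 ± 4.96 CPM in E02H1.1, 89.3 ± 5.53 CPM in C27F2.4 and 100.7 ± 5.05 CPM in Empty_vector (SD, n = 4 each), with adjusted p-values of 0.1005 and 0.0810 for the knockdowns. The E02H1.1 difference passed without E02H1.1 D (-0.19, adjusted p = 0.0458). sgk-1 mRNA averaged 23.7 ± 2.35 CPM in E02H1.1, 23.3 ± 2.20 CPM in C27F2.4 and 20.7 ± 2.51 CPM in Empty_vector (SD, n = 4 each), log2 fold changes of 0.20 (adjusted p = 0.119) and 0.17 (adjusted p = 0.270).

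ist-1, the adaptor gene, rose in mRNA in both knockdowns. It had 27.6, 24.5, 29.5 and 25.2 CPM in E02H1.1 libraries A to D, 26.4, 24.7, 24.7 and 19.3 CPM in C27F2.4 libraries, and 19.97, 20.6, 17.8 and 19.4 CPM in Empty_vector libraries. Every E02H1.1 library lay above every Empty_vector library, while C27F2.4 D lay inside the Empty_vector range. The log2 fold change was 0.46 ± 0.10 in E02H1.1 (1.37-fold, adjusted p = 0.000538). In C27F2.4 it was 0.29 ± 0.10 with an adjusted p of 0.0453, and that call was lost without any 1 of the Empty_vector libraries or of C27F2.4 A, B and C (adjusted p from 0.05002 to 0.146), without Empty_vector C and C27F2.4 A together (0.19, adjusted p = 0.244), and when only the 2 groups were fitted (0.0561). Footprints of ist-1 averaged 8.20 ± 1.17 CPM in E02H1.1, 8.51 ± 1.57 CPM in C27F2.4 and 7.09 ± 1.80 CPM in Empty_vector (SD, n = 4 each). At this depth the footprint intervals, -0.14 to 0.62 for E02H1.1 and -0.05 to 0.64 for C27F2.4, hold both 0 and the sizes seen in mRNA.

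Of the pair of genes that sets the signalling lipid, daf-18 gave 1 call and age-1 gave 0. daf-18 mRNA had 187, 187, 197 and 182 CPM in E02H1.1 libraries A to D, and 200.5, 218, 246 and 189 CPM in Empty_vector libraries. The groups overlapped, Empty_vector C was the highest, and the log2 fold change was -0.18 ± 0.07 (adjusted p = 0.0391). Without Empty_vector C it was -0.10 (adjusted p = 0.149), and the call was also lost without E02H1.1 A (0.0787), B (0.0722) or D (0.112), without Empty_vector B (0.0755), without Empty_vector C and C27F2.4 A (0.0682), and with no filter on low counts (0.05004). daf-18 mRNA had 194, 218, 237 and 212 CPM in C27F2.4 libraries, a log2 fold change of 0.01 (interval -0.13 to 0.15). daf-18 footprints averaged 240.0 ± 17.03 CPM in E02H1.1, 255 ± 24.4 CPM in C27F2.4 and 270.4 ± 36.4 CPM in Empty_vector (SD, n = 4 each), with log2 fold changes of -0.17 (adjusted p = 0.155) and -0.08 (adjusted p = 0.628). age-1 mRNA changed by -0.08 in E02H1.1 (interval -0.21 to 0.05) and by 0.03 in C27F2.4 (interval -0.10 to 0.16). Its footprints changed by -0.12 (interval -0.32 to 0.07) and -0.13 (interval -0.32 to 0.06).

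daf-16 mRNA had 188, 193, 193 and 196 CPM in E02H1.1 libraries A to D, 178, 180.3, 184 and 176 CPM in C27F2.4 libraries, and 176, 181, 155 and 170.0 CPM in Empty_vector libraries. Each E02H1.1 library was above each Empty_vector library, and Empty_vector C was the lowest. The log2 fold change was 0.18 ± 0.05 in E02H1.1 (adjusted p = 0.00367) and 0.07 ± 0.05 in C27F2.4 (adjusted p = 0.308). Footprints of daf-16 averaged 139 ± 4.88 CPM in E02H1.1, 129.8 ± 7.58 CPM in C27F2.4 and 138 ± 6.24 CPM in Empty_vector (SD, n = 4 each), with log2 fold changes of 0.01 (interval -0.10 to 0.12) and -0.09 (interval -0.19 to 0.02). Without Empty_vector C and C27F2.4 A the daf-16 footprint difference in C27F2.4 was -0.16 and passed the test (adjusted p = 0.0402). The mRNA of the transcription factor gene thus rose in E02H1.1 knockdown and, less securely, fell in Starved worms. The Starved call was lost in 6 of 18 alternatives, and daf-16 footprints passed in neither comparison.

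The mRNA groups did not overlap for 4 of 8 genes in E02H1.1 against Empty_vector (akt-1, akt-2, ist-1 and daf-16) and for 1, akt-2, in C27F2.4, where 37.5% and 16.4% of all genes did not. In footprints this held for 0 of 8 genes in either knockdown, against 23.1% and 13.7% of all genes. Muscle markers moved beside these changes: the 6 genes summed to 2445 to 2636 mRNA CPM in E02H1.1, 2154 to 2426 CPM in C27F2.4 and 1581 to 1982 CPM in Empty_vector libraries, and 6 of 6 rose in each knockdown. Of 8 neuronal genes 6 rose and 1 fell in E02H1.1 mRNA, with sums of 749 to 808 CPM in E02H1.1 and 639 to 724 CPM in Empty_vector libraries. In C27F2.4 mRNA 3 of the 8 rose. Of 7 intestinal genes 2 rose and 1 fell in E02H1.1 mRNA, and 2 rose in C27F2.4. Of all genes, 19.9% rose in E02H1.1 mRNA and 8.11% in C27F2.4. In footprints 3 of 6 muscle, 3 of 7 neuronal and 1 of 7 intestinal genes rose in E02H1.1, where 10.7% of all genes rose. In C27F2.4 footprints 1 gene of each of these tissues rose, where 4.96% of all genes rose. The 12 germline genes summed to 489.8 to 554.2 mRNA CPM in E02H1.1, 513 to 694 CPM in C27F2.4 and 554.4 to 690.4 CPM in Empty_vector libraries, and the E02H1.1 and Empty_vector ranges did not overlap. Of these 12, 3 fell and 0 rose in E02H1.1 mRNA, with a median log2 fold change of -0.19. That count of falls lies near the 19.6% of all genes that fell. In C27F2.4 mRNA 0 of the 12 passed, where 13.7% of all genes passed. In footprints 1 of the 12 germline genes fell and 0 rose in E02H1.1, with a median of -0.23, where 9.23% of all genes fell. In C27F2.4 footprints 0 of the 12 passed. The part of these markers in the results was not tested.

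In the fit by group alone, TE gave 0 calls among the 8 genes in either knockdown, with 2 unadjusted p-values under 0.05 in each. In that fit 10.8% of 10714 genes passed in E02H1.1 and 0.877% in C27F2.4. The C27F2.4 share rests on 94 calls, which became 9 without C27F2.4 C and 227 without C27F2.4 A. In E02H1.1 the 2 were daf-16 (-0.16 ± 0.07, adjusted p = 0.126) and akt-1 (0.15 ± 0.07, adjusted p = 0.154). In C27F2.4 they were pdk-1 (-0.21 ± 0.09, adjusted p = 0.234) and daf-16 (-0.16 ± 0.07, adjusted p = 0.265). With a block by library name, daf-16 (-0.17, adjusted p = 0.0347) and akt-1 (0.15, adjusted p = 0.0483) passed in E02H1.1. pdk-1 passed in C27F2.4 (-0.21, adjusted p = 0.0325). In those fits 2227 of 10714 genes passed in E02H1.1 and 662 in C27F2.4.

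Set directly against each other, the knockdowns gave no call among the 8 genes in the edgeR fit of all 3 groups. E02H1.1 over C27F2.4 gave 0 mRNA calls, where 3.26% of genes passed, with 4 unadjusted p-values under 0.05, and DESeq2 called 1. It gave 0 footprint calls in edgeR and in DESeq2, with 1 unadjusted p under 0.05, where 1.25% of genes passed, and 0 TE calls, with 1 unadjusted p under 0.05, where 0.0467% passed. The all-gene share was not stable: 445 mRNA calls were made, against 84 without E02H1.1 B, 1713 without C27F2.4 A and 2649 without Empty_vector C and C27F2.4 A. The lowest adjusted p belonged to akt-2 mRNA, which averaged 41.3 ± 2.20 CPM in E02H1.1 and 34.8 ± 3.36 CPM in C27F2.4 (SD, n = 4 each; log2 fold change 0.25 ± 0.08, interval 0.09 to 0.40, adjusted p = 0.0638). It passed without C27F2.4 A (0.30, adjusted p = 0.0123), and DESeq2 gave an adjusted p of 0.0288. daf-18 mRNA, with -0.19 ± 0.07 (adjusted p = 0.108), passed when only the 2 groups were fitted (adjusted p = 0.0288) and without C27F2.4 A (-0.24, adjusted p = 0.0272). The mRNA groups did not overlap for 3 of 8 genes (akt-1, akt-2 and daf-16) and 11.4% of all genes, and the footprint groups for 0 of 8 and 8.37%.

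The ratio of akt-2 to akt-1 counts within a library needs no scaling between libraries. This ratio and that of age-1 to daf-18 were formed after the genes had been seen to move apart in these libraries, so they are given as a description, with no test. In mRNA the akt-2 to akt-1 ratio had a median of 0.266 (0.228 to 0.349) in Starved and 0.220 (0.191 to 0.242) in Fed libraries, and the ranges overlapped. The mean log2 ratio was -1.85 ± 0.23 in Starved and -2.19 ± 0.12 in Fed worms (SD, n = 6 each). In footprints the mean log2 ratio was -2.55 ± 0.16 in Starved and -2.83 ± 0.09 in Fed worms (SD, n = 6 each). The differences were 0.34 in mRNA and 0.28 in footprints, and without Starved 1 and Starved 5 they were 0.20 and 0.23. In E02H1.1 knockdown the mRNA ratio ran from 0.312 to 0.358 and did not overlap Empty_vector, at 0.190 to 0.245, a log2 difference of 0.56. The log2 difference was 0.31 in E02H1.1 footprints, and 0.20 in mRNA and 0.17 in footprints for C27F2.4.

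The age-1 to daf-18 ratio, of the lipid kinase over the phosphatase, had an mRNA median of 0.325 (0.292 to 0.406) in Starved and 0.281 (0.265 to 0.307) in Fed libraries, a log2 difference of 0.23. Starved 1 had the highest ratio. Without Starved 1 the difference was 0.17, and without Starved 1 and Starved 5 it was 0.15. In footprints the medians were 0.198 in Starved and 0.204 in Fed libraries, and the log2 difference was 0.02. In the knockdowns this ratio differed from Empty_vector by 0.09 or less on the log2 scale in either assay.

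**Figure D4:**
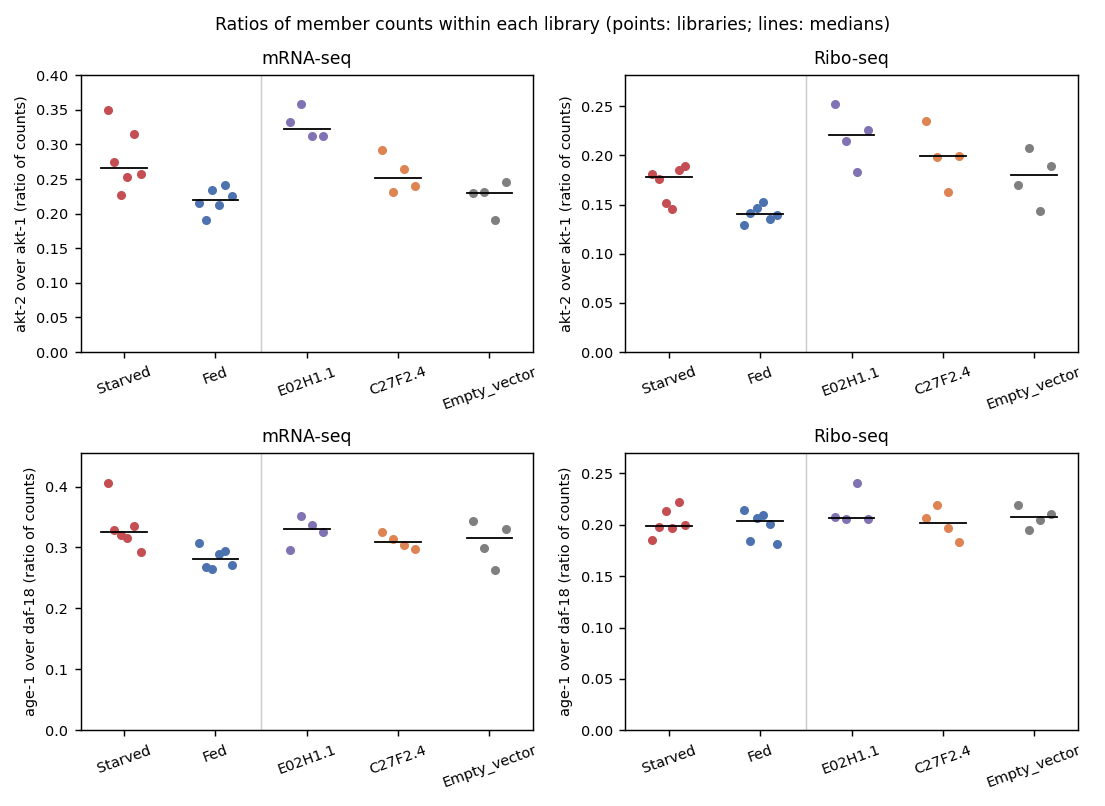
Ratio of akt-2 to akt-1 counts (top) and of age-1 to daf-18 counts (bottom) within each library, in mRNA-seq (left) and Ribo-seq (right), by group. Points are libraries and lines are medians; the grey line parts the experiments. In mRNA-seq all 4 E02H1.1 points of the akt-2 to akt-1 ratio lie above the 4 Empty_vector points.

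The genes differed widely among themselves in footprints per mRNA. By the mean log2 ratio of footprint to mRNA CPM among the genes tested, akt-1, sgk-1 and daf-18 stood at the 93.3, 91.2 and 85.1 percentiles in Starved and at the 91.2, 88.8 and 88.0 percentiles in Fed worms. daf-16 stood at 49.8 in Starved and 44.6 in Fed worms, and age-1 at 53.2 in Starved and 66.8 in Fed worms. ist-1 had the lowest ratio of the 8 genes in every group, at the 15.1 percentile in Starved, 16.6 in Fed, 5.53 in E02H1.1, 6.79 in C27F2.4 and 7.06 in Empty_vector worms. sgk-1 had the highest in the knockdown experiment, at 88.4 in E02H1.1, 89.1 in C27F2.4 and 95.7 in Empty_vector worms. These ratios are not corrected for the length of untranslated sequence, and the experiments were scaled separately.

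Over the 24 mRNA-seq libraries, with each experiment centred on its own mean, the log2 CPM of akt-1 and daf-18 went together (Pearson r = 0.91), and akt-2 ran opposite to both (-0.72 with akt-1 and -0.69 with daf-18). ist-1 ran with daf-16 (0.60) and akt-2 (0.59). These values describe the libraries, which share group differences and normalization. Among 8516 genes, the closest pattern to each member was that of gei-3 for ist-1 (r = 0.81), sygl-1 for age-1 (0.80), rtfo-1 for daf-18 (0.94), aagr-3 for pdk-1 (0.86), row-1 for akt-1 (0.93), mlc-3 for akt-2 (0.91), helq-1 for sgk-1 (0.73) and mbk-2 for daf-16 (0.90). mlc-3, a myosin light chain gene, is among the 6 muscle markers that rose in mRNA in both knockdowns.

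Of 40 insulin-like peptide genes, the ligands of the receptor, 38 were in the mRNA table and only 13 or 14 were expressed enough to be tested. In Starved worms 3 of 13 rose and 0 fell, where 11.8% of all genes rose and 10.2% fell. ins-1, encoding a peptide known to oppose receptor signalling, averaged 19.1 ± 2.36 CPM in Starved and 15.6 ± 1.16 CPM in Fed worms (SD, n = 6 each; log2 fold change 0.29 ± 0.08, adjusted p = 0.0110). The other two were ins-18 (0.56, adjusted p = 0.0157) and ins-30 (0.44, adjusted p = 0.0340), named after their values were seen. In E02H1.1 knockdown 2 of 14 fell and 0 rose, where 19.6% of all genes fell and 19.9% rose. ins-34 averaged 30.8 ± 3.38 CPM against 40.9 ± 2.52 CPM in Empty_vector (log2 fold change -0.41 ± 0.08, adjusted p = 0.000280), and ins-2 fell by 0.35 on the log2 scale (adjusted p = 0.00173). In C27F2.4 knockdown 1 of 14 fell, again ins-34 (-0.42 ± 0.08, adjusted p = 0.000705), and 0 rose, where 5.56% of all genes fell. In footprints 4 or 5 peptide genes could be tested, and 1 call was made, ins-18 in E02H1.1 (0.77, adjusted p = 0.0381), which was lost without Empty_vector C and C27F2.4 A. That is 1 of 5 genes, where 20% of all genes passed, 10.7% of them higher in E02H1.1 as a share of all genes.

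Of 38 other pathway genes and DAF-16 regulators, 32 were tested in mRNA. In Starved worms 4 rose and 6 fell, where 21.9% of all genes passed, with a median log2 fold change of -0.01. pqm-1, a transcription factor that complements DAF-16, rose by 0.32 ± 0.08 in mRNA (adjusted p = 0.00366) and by 0.34 ± 0.09 in footprints (adjusted p = 0.00212), and imb-2, an importin gene, fell by 0.28 on the log2 scale in mRNA (adjusted p = 7.87e-06). swsn-1, a chromatin remodelling subunit that acts with DAF-16, fell by 0.25 on the log2 scale in mRNA (adjusted p = 2.97e-05). In Starved footprints 7 of 30 rose and 6 fell, where 28.6% of all genes passed. Among those that fell was tcer-1, a transcription elongation factor that works with DAF-16 in germline-less worms (-0.34 ± 0.05, adjusted p = 9.64e-07). tcer-1 also fell in TE (-0.33 ± 0.06, adjusted p = 0.000809), with 3 of 30 TE calls in all, where 6.29% of all genes passed. In E02H1.1 knockdown 9 of 32 rose and 5 fell in mRNA, close to the 39.5% of all genes that passed, and 3 of 30 rose and 7 fell in footprints, where 20% of all genes passed. The largest rises were of egl-21 (0.84 ± 0.09, adjusted p = 1.58e-07) and egl-3 (0.56 ± 0.09, adjusted p = 6.30e-05), whose products process neuropeptides and insulin-like peptides. egl-21 is also 1 of the 8 neuronal markers, of which 6 rose in E02H1.1 mRNA. prmt-1, an arginine methyltransferase that acts on DAF-16, fell in mRNA (-0.31 ± 0.05, adjusted p = 1.91e-05) and footprints (-0.42 ± 0.08, adjusted p = 0.000507). In C27F2.4 knockdown 4 of 32 rose and 1 fell in mRNA, where 13.7% of all genes passed, egl-21 again rising most (0.60 ± 0.09, adjusted p = 8.45e-05), and in footprints 0 of 30 rose and 2 fell, where 7.08% passed: cst-1 (-0.35, adjusted p = 0.0193) and rle-1 (-0.25, adjusted p = 0.0316).

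Of 25 genes listed as raised by DAF-16, a readout downstream of the pathway, 19 were tested in Starved and Fed mRNA. Of these, 9 rose, 0 fell and 10 did not pass, where 11.8% of all genes rose and 10.2% fell. Like the lists above, this list was chosen with earlier results of these data known. Its counts are therefore a description and no test of pathway activity. The median log2 fold change was 0.33, against 0.00 for all genes. In footprints 7 of 15 rose and 0 fell, where 13.9% of all genes rose and 14.7% fell, with a median of 0.34, against 0.01 for all genes. lea-1, a desiccation protection gene, averaged 187 ± 12.7 CPM in Starved and 114 ± 5.57 CPM in Fed worms (SD, n = 6 each; log2 fold change 0.72 ± 0.04, adjusted p = 9.31e-13). hsp-12.3, a small heat shock gene, averaged 10.2 ± 1.04 CPM in Starved and 6.12 ± 1.34 CPM in Fed worms (SD, n = 6 each; log2 fold change 0.74 ± 0.12, adjusted p = 3.97e-05), and its footprints rose by 0.99 ± 0.10. sod-3, the superoxide dismutase gene most often used to report DAF-16 activity, was named after its values were seen and had a log2 fold change of 0.17 ± 0.28 in mRNA (adjusted p = 0.725). Both counts of rises were the same without Starved 1 and Starved 5. In the same mRNA-seq libraries 5 of 6 muscle and 3 of 7 intestinal markers rose. In the footprints 2 of 6 muscle markers rose and 1 fell, and 2 of 7 intestinal markers rose. Their part in these counts was not tested.

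In the knockdowns this list did not move 1 way. In E02H1.1 4 of 18 rose and 3 fell in mRNA, a share close to the 39.5% of all genes that passed. In footprints 5 of 15 rose and 1 fell, where 20% of all genes passed. The medians were -0.01 and -0.06. lea-1 averaged 179 ± 20.7 CPM in E02H1.1 and 104.3 ± 8.83 CPM in Empty_vector (SD, n = 4 each; log2 fold change 0.78 ± 0.07, adjusted p = 3.02e-08), and pck-1, for the first committed enzyme of gluconeogenesis, rose by 0.46 ± 0.06 (adjusted p = 5.79e-06). gpdh-1 (-0.46 ± 0.15, adjusted p = 0.0209) and nnt-1 (-0.31 ± 0.08, adjusted p = 0.00274) fell. In C27F2.4 2 of 18 rose and 0 fell in mRNA, where 13.7% of all genes passed, and 2 of 15 rose and 1 fell in footprints, where 7.08% passed, with medians of -0.11 and 0.09. Without Empty_vector C and C27F2.4 A, 1 gene rose in C27F2.4 mRNA and 1 in footprints. lea-1 differed between the knockdowns: its mRNA averaged 179 ± 20.7 CPM in E02H1.1 and 92.0 ± 2.64 CPM in C27F2.4 (SD, n = 4 each; log2 fold change 0.96 ± 0.07, adjusted p = 3.55e-09).

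**Figure D5:**
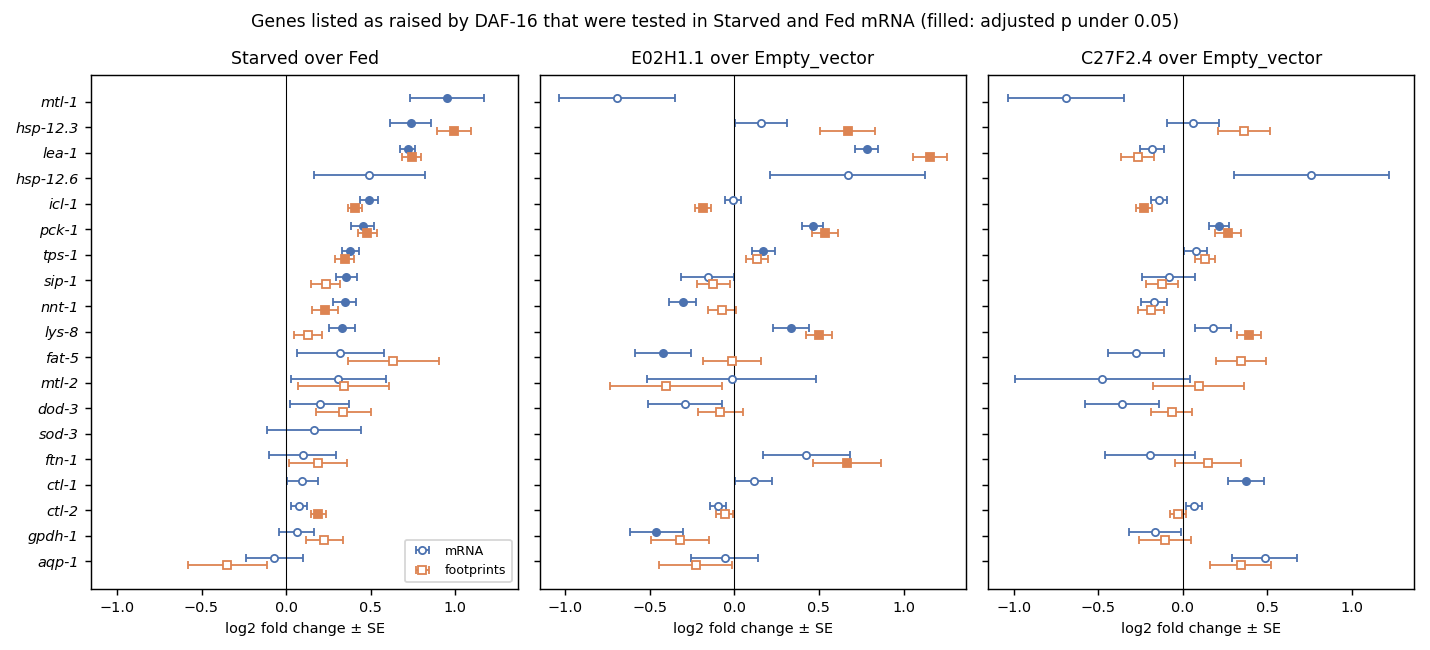
Log2 fold changes ± SE (x axis) in mRNA and footprints of the 19 genes listed as raised by DAF-16 that were tested in Starved and Fed mRNA (rows), for Starved over Fed (left), E02H1.1 over Empty_vector (middle) and C27F2.4 over Empty_vector (right). Filled symbols passed an adjusted p of 0.05. The filled symbols all lie right of 0 in the left panel and on both sides of 0 in the others.

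Of 11 genes listed as lowered by DAF-16, only 3 or 4 were tested in mRNA. dod-19 rose in all 3 comparisons: its mRNA averaged 20.3 ± 2.63 CPM in Starved and 15.8 ± 1.97 CPM in Fed worms (SD, n = 6 each; log2 fold change 0.36 ± 0.09, adjusted p = 0.00326). In the knockdown experiment it averaged 14.3 ± 1.87 CPM in E02H1.1, 11.7 ± 1.54 CPM in C27F2.4 and 5.08 ± 0.97 CPM in Empty_vector (SD, n = 4 each), log2 fold changes of 1.49 ± 0.14 (adjusted p = 2.11e-08) and 1.21 ± 0.14 (adjusted p = 1.83e-06). Beyond dod-19, 0 of the other listed genes passed in Starved mRNA and 1 rose in each knockdown. Of all genes, 11.8% rose in Starved mRNA, 19.9% in E02H1.1 and 8.11% in C27F2.4. In footprints 3 of the listed genes were tested, and 0 passed in Starved worms. In E02H1.1 footprints dod-19 rose and daf-15 fell (-0.23 ± 0.05, adjusted p = 0.00362), where 20% of all genes passed. In C27F2.4 footprints 2 rose and 0 fell, where 7.08% passed.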

How the data were processed

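The authors deposited 1 table of raw counts per gene for mRNA-seq and 1 for Ribo-seq, each with 24 libraries as columns, and the values are whole counts with no normalization. Adapter trimming with cutadapt is named in the submitters' processing notes, without a version. For the aligner, the counter and the genome build, the entry is: not given in the sources used here. Every gene of the Ribo-seq table has at least 10 counts in at least 13 columns, so low footprint genes are missing from it. The Fed and Starved columns were matched to samples by name. The knockdown columns carry the letters A to D, where the sample titles carry numbers, so they were matched to their group only. Columns left unused numbered 0.

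Counts were tested with edgeR 4.0.16 in R 4.3.3 (filterByExpr, TMM scaling, robust quasi-likelihood fit). Starved and Fed libraries were fitted together, and the 3 knockdown groups together. TE was the assay by group interaction over both assays. P-values were adjusted by Benjamini-Hochberg over all genes tested, and intervals cover 95%. CPM values use TMM library sizes. The pipeline was run on simulated counts with known changes, the same spread for every gene and no outlying libraries. Its outcome is not given here and does not bear on effects of single libraries. Alternatives were DESeq2 1.42.0, DESeq2 size factors, library totals, no filter, thinned counts, fits of only the groups compared, blocks for replicate or library name, and each library left out. Leaving out Starved 1 with Starved 5, or Empty_vector C with C27F2.4 A, and the within-library ratios were added after seeing the data.

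The pathway genes and all lists were chosen with earlier results of these data known. Every pathway gene and aap-1 is reported. From each list at most 2 genes in each direction are named, those with the largest called change and a mean of at least 10 CPM in either group, other than genes said to be chosen after their values were seen. Likeness used log2 CPM with an offset of 0.1.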

Additional observations from a re-analysis of the deposited data

Results flagged for a closer look

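In 4 of 80 sets of libraries tested (1 gene, assay and group each), 1 library stood apart from the others of its group by Dixon's criterion, where chance marks about 1 in 20. Starved 6 had 125.8 CPM of daf-16 mRNA, below the other Starved libraries at 153 to 160.5 CPM, and without it the daf-16 change between Starved and Fed worms was -0.08 (adjusted p = 0.0925). Empty_vector C had 65.9 footprint CPM of age-1, above the other Empty_vector libraries at 52.3 to 52.9 CPM. Empty_vector D had 9.77 footprint CPM of ist-1, above the others at 5.90 to 6.36 CPM. Starved 3 had 5.15 footprint CPM of ist-1, below the other Starved libraries at 8.82 to 10.5 CPM. The ist-1 values rest on few counts, from 20 to 107 per library over all libraries.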

How the results depend on the processing

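For the gene lists, 148 values recomputed under alternatives moved past a set margin and 1428 did not. Across 108 results for the 8 genes and aap-1, 1773 values were recomputed under alternatives. No called change reversed; 94 values changed sign without passing the threshold in either case, and 22 results gained or lost a call. In Starved worms the mRNA calls for akt-1 and daf-18 and the footprint calls for age-1 and daf-18 held under every alternative run, as did the E02H1.1 mRNA calls for akt-2, ist-1 and daf-16. With 1 library left out, the number of the 8 genes called ran from 2 to 5 in Starved mRNA, from 0 to 1 in Starved TE, from 0 to 2 in E02H1.1 footprints, from 0 to 1 in C27F2.4 mRNA and from 0 to 2 in E02H1.1 over C27F2.4 mRNA. Without Starved 1 and Starved 5, 2 Starved footprint calls were left. Without Empty_vector C and C27F2.4 A, C27F2.4 gave 0 mRNA and 1 footprint call, and E02H1.1 over C27F2.4 gave 3 mRNA and 1 footprint calls. Fits of only the 2 groups compared gave 0 mRNA calls for C27F2.4 and 1 for E02H1.1 over C27F2.4, where DESeq2 also gave 1. The log2 ratio differences in Starved worms, with 1 library left out, ran from 0.268 to 0.392 (akt-2 over akt-1, mRNA), from 0.247 to 0.322 (akt-2 over akt-1, footprints) and from 0.173 to 0.268 (age-1 over daf-18, mRNA), and without Starved 1 and Starved 5 they were 0.204, 0.227 and 0.154. The cause of these shifts was not tested. Libraries of different groups with the same number or letter deviated together, with a correlation over 0.1, in 6 of 18 pairs in each assay, and 7 of 18 in mRNA-seq and 6 of 18 in Ribo-seq correlated best with their own. The labels do not say that a number or letter marks a shared batch or day. Among the letters, every C pair was above 0.1, at 0.29 to 0.50, and correlated best with its own letter, a hint from the data and not the design. With that replicate block the calls were 3 in E02H1.1 footprints (daf-18 and pdk-1 joining akt-2, with aap-1 also called), 1 in C27F2.4 footprints (pdk-1) and 2 in E02H1.1 over C27F2.4 mRNA (akt-2 and daf-18). The block also called akt-1 mRNA in E02H1.1 (-0.11, adjusted p = 0.0393), and the daf-18 footprint value was -0.17 (adjusted p = 0.00732). The mRNA-seq and Ribo-seq libraries of 1 name were over 0.1 in 15 of 24 pairs, and 16 of 24 correlated best with their own. With a block by that name, TE calls were 1 in Starved (age-1), 2 in E02H1.1 (akt-1 and daf-16) and 1 in C27F2.4 (pdk-1), and TE calls over all genes in C27F2.4 were 662, against 94. Over all genes, with 1 library left out, calls ran from 594 to 1080 in E02H1.1 TE (1160 with all), from 422 to 746 in Starved TE (665), from 482 to 778 in C27F2.4 footprints (760), from 1189 to 1980 in C27F2.4 mRNA (1864) and from 69 to 413 in E02H1.1 over C27F2.4 footprints (134). TE was not run with DESeq2. Depth limits ist-1 footprints most.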
